A study of Mus musculus with 8 samples.

Results

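The peaks described here are the H3K27me3 peaks that end at or before the 6 Mb position on mouse chromosomes 1 to 19 (mm9), the assembled sequence closest to the centromere. They were chosen by position alone, from 2 deposited peak lists, and number 712 of 95149 peaks in all. Of these, 625 of 90158 came from the Kdm6bMUT list and 87 of 4991 from the Kdm6bWT list. The other 92880 autosomal peaks, 88179 and 4701 in the respective lists, served as the comparison and are called the rest of the autosomes.

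The ChIP samples were morulae, embryos at the compact stage before the blastocyst forms, labelled as hybrids of BDF1 and PWK mice. Eggs came from BDF1 females 8 weeks old, fertilized in vitro. The strain tag names PWK, whereas the injection protocol names BDF1 sperm. Zygotes of the Kdm6bWT group received mRNA for Kdm6b, a histone demethylase that takes the methyl groups of H3K27me3 off the histone tail. Zygotes of the Kdm6bMUT group received mRNA for a mutant form at the same concentration, 1.8 µg/µl, in the same interval of 2.5 to 4 hours after fertilization. Both groups therefore carried an injection. The inputs bear the group names in their titles but a tag for no injection. H3K27me3 was profiled by ultra-low-input native ChIP-seq in 1 library per group, called against input. The number of embryos behind each ChIP library is not given in the sources used here. With 1 library per group no test between groups was possible, and each difference below is between these libraries.

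Mouse chromosomes are telocentric: the centromere sits at one end, and the numbering of positions starts there. The centromere and the major satellite repeats beside it are largely missing from the assembly, which opens at the 3 Mb position. H3K27me3 is laid down by Polycomb repressive complex 2 and is best known over silent developmental genes. In early embryos it also covers broad stretches between genes, many inherited from the egg. Satellite-rich heterochromatin next to the centromere is usually marked by H3K9me3, and in the early embryo its paternal copies are known to carry Polycomb proteins and H3K27me3 instead. The question for these peaks is whether the sequence next to that heterochromatin differs from the rest of the chromosome, and whether it differs alike under both injections. No annotation of the files' build was used, so no gene was placed on a peak, and regions are named by position counted from 1.

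In Kdm6bMUT-injected morulae the 3 Mb next to the centromere were poor in H3K27me3 peaks. The 625 Kdm6bMUT peaks gave a density of 10.96 per Mb (95% exact Poisson interval 10.1 to 11.9), against 37.5 per Mb (37.2 to 37.7) on the rest of the autosomes. The ratio was 0.293 (0.270 to 0.317). They covered 1085 kb, or 1.90% of this sequence, against 10.5% of the rest, which is 5.50 times more. Intervals here and below reflect counting error alone, since peaks in a row along a chromosome are not independent. The length used was the full 3 Mb of each autosome, without taking out assembly gaps or sequence to which reads cannot be assigned. With length taken from the first peak, the density ratio was 0.327. Whether such gaps or sequence play a part in the low density was not tested.

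In Kdm6bWT-injected morulae the same sequence was much less depleted in number and not depleted in covered length. The 87 Kdm6bWT peaks gave 1.53 per Mb (1.22 to 1.88) against 2.00 per Mb (1.94 to 2.05), a ratio of 0.764 (0.611 to 0.945). This ratio turned to 1.27 for peaks with ends of at most 4 Mb and to 1.08 among peaks of at least 1 kb. They covered 130 kb, or 0.229% of the sequence, against 0.138% of the rest. That excess of covered length, 1.66 times, came from the first 100 kb of a few chromosomes. Without the first 100 kb of each autosome, a boundary chosen after the values were seen, the ratio was 0.647. Without chromosome 11 it was 1.01.

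The lists of both injections were closer in covered length and in number of peaks near the centromere than on the rest of the autosomes. Kdm6bMUT peaks covered 8.32 times as many bases as Kdm6bWT peaks near the centromeric ends, and 76.0 times as many on the rest of the autosomes. Counted by peaks, the ratios were 7.18 and 18.8. Leaving out the first 100 kb gave a ratio of covered bases of 21.2, and leaving out chromosome 11 gave 14.1. Read depth is unknown for both libraries, and the number of peaks in a list moves with it. The lists also reach down to unlike −log10 p values, 2.41 (Kdm6bMUT) and 3.67 (Kdm6bWT). With Kdm6bMUT peaks held to at least 3.67, the ratio of covered bases near the centromere was 4.00. Coverage there was then 0.134 (Kdm6bMUT) and 1.66 (Kdm6bWT) times that of the rest.

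The low Kdm6bMUT density was not limited to the 3 Mb beside the centromere. From 6 to 9 Mb the Kdm6bMUT density was 9.44 per Mb (8.66 to 10.3) and the coverage 1.64%, both slightly below the values next to the centromere. Over 19 consecutive windows of 3 Mb, each summed over all 19 autosomes, Kdm6bMUT density ranged from 9.44 to 50.9 per Mb. The window next to the centromere ranked 3 from the lowest. Density was 20.8 per Mb in the window starting at 24 Mb, 38.5 per Mb at 39 Mb and 50.9 per Mb at 51 Mb. Windows from 6 to 24 Mb lay between 9.44 and 17.5 per Mb, so the sequence beside the centromere was within their range, and the higher densities lay farther along the chromosome.

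The Kdm6bWT profile was flatter. Its windows ranged from 0.860 to 2.67 peaks per Mb, and the window next to the centromere ranked 9 from the lowest in density. In covered length it ranked 19, the highest of all, at 0.229% against a median window of 0.112%. From 6 to 9 Mb the Kdm6bWT density dropped to 0.860 per Mb (0.636 to 1.14), so the window at the centromeric end was 1.78 times (1.24 to 2.57) as dense as its neighbour. In the Kdm6bMUT list the same ratio was 1.16 (1.03 to 1.31).

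**Figure D1:**
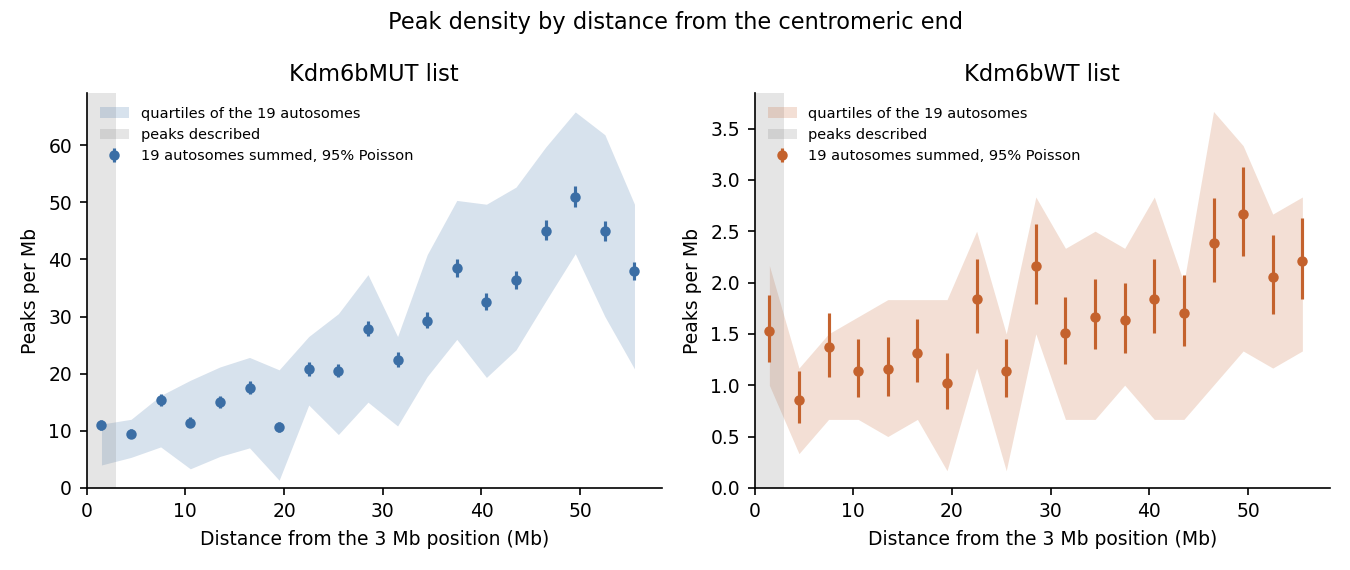
Peaks per Mb (y axis) in windows of 3 Mb by distance in Mb from the 3 Mb position (x axis), for the Kdm6bMUT list (left) and the Kdm6bWT list (right); points sum 19 autosomes with 95% exact Poisson intervals, the band spans the quartiles of single autosomes, and grey marks the peaks described. Kdm6bMUT density is 10.96 per Mb at the centromeric end and 50.9 per Mb in its densest window, while Kdm6bWT density stays between 0.860 and 2.67 per Mb.

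The distal ends of the same chromosomes, the other place where assembled sequence stops, did not show the low Kdm6bMUT density. The last 3 Mb before the final peak of each autosome held 35.6 Kdm6bMUT peaks per Mb (34.1 to 37.2), so the centromeric ends had 0.308 (0.281 to 0.337) of the density of the distal ends. For Kdm6bWT peaks the distal density was 2.07 per Mb (1.71 to 2.48), and the ratio was 0.737 (0.552 to 0.981). Kdm6bMUT peaks covered 55.0 times the bases of Kdm6bWT peaks at the distal ends. The end of a chromosome was taken as the last peak of either list, which raises the distal density slightly.

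Single autosomes differed widely near the centromere. Kdm6bMUT density near the centromeric end ranged from 0 per Mb on chromosome 14 through a median of 7 per Mb to 51.3 per Mb on chromosome 6. On the rest of the same autosomes, averaged over far longer sequence, it ranged from 28.4 to 43.5 per Mb. Density was lower near the centromere than on the rest of the chromosome on 18 of 19 autosomes, all except chromosome 6. By covered length it was lower on all 19, with chromosome 6 close to even at 10.98% against 11.3%.

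The Kdm6bMUT peaks that were present were gathered on few chromosomes. Chromosomes 6, 18 and 3 held 310 of the 625 peaks (49.6%) and 55.5% of the covered bases, with 330 kb, 160 kb and 113 kb. Chromosome 6 alone held 154 peaks and 30.4% of the bases. Without these 3 chromosomes the density near the centromere was 0.177 of that on the rest, and the coverage 0.0965 of it. At the other extreme, chromosome 14 had no peak of either list in this interval. Its first Kdm6bMUT peak began at 6.02 Mb and its first Kdm6bWT peak at 9.42 Mb. Chromosome 15 had 1 Kdm6bMUT peak, of 2.53 kb, and chromosome 17 had 3, of 4.79 kb in all.

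Kdm6bWT peaks were spread in another way. Their density ranged from 0 per Mb on chromosome 14 through a median of 1.33 per Mb to 4.00 per Mb on chromosome 11, against 1.66 to 2.34 per Mb averaged over the longer rest of single autosomes. It was lower near the centromere on 13 autosomes and higher on 6, namely chromosomes 4, 5, 6, 9, 11 and 18. Chromosomes 11 and 9 held 56.5 kb and 27.3 kb, together 64.3% of the Kdm6bWT bases near the centromere, followed by chromosome 18 with 6.59 kb. The least covered after chromosome 14 were chromosomes 7 and 19, with 0.697 kb and 1.25 kb. Chromosome 18 was the only autosome among the 3 most covered of both lists.

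**Figure D2:**
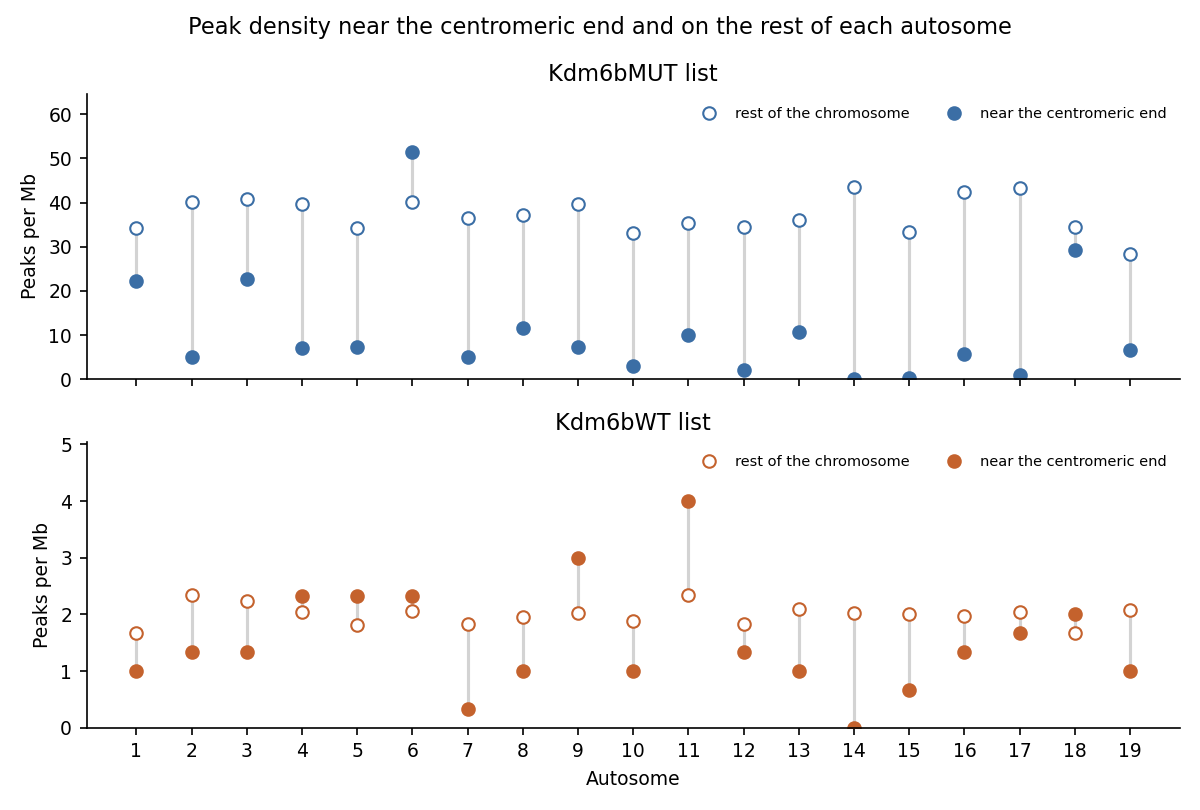
Peaks per Mb (y axis) near the centromeric end (filled) and on the rest of each autosome (open) for the 19 autosomes (x axis), Kdm6bMUT list above and Kdm6bWT list below. The filled Kdm6bMUT points lie below the open ones on 18 autosomes, with chromosome 6 at 51.3 per Mb as the exception, and the filled Kdm6bWT points lie above the open ones on 6.

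In windows of 1 Mb the peaks were again unevenly placed. Of the 57 windows near the centromeric ends, 12 had no Kdm6bMUT peak, 21 had no Kdm6bWT peak and 9 had neither. The most covered Kdm6bMUT window was chromosome 6 from 4 to 5 Mb, where 117 peaks covered 275 kb and 4 Kdm6bWT peaks covered 1.65 kb. Next came the window from 4 to 5 Mb of chromosome 18, with 93.8 kb against 0.408 kb in the Kdm6bWT list. It was followed by the opening window of chromosome 3, with 78.6 kb and 1.68 kb. In these windows nearly all covered sequence was in the Kdm6bMUT list.

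The reverse was seen in the most covered Kdm6bWT windows. On chromosome 11 from 3 to 4 Mb, 10 Kdm6bWT peaks covered 55.1 kb and 11 Kdm6bMUT peaks covered 8.90 kb. On chromosome 9 from 3 to 4 Mb the lengths were 26.996 kb and 19.114 kb. The third, chromosome 16 from 3 to 4 Mb, had 4.98 kb of Kdm6bWT peaks and 44.7 kb of Kdm6bMUT peaks, so it was not reversed. In all, 8 of the 57 windows had more Kdm6bWT than Kdm6bMUT coverage and 40 had more Kdm6bMUT coverage.

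Kdm6bMUT peaks near the centromere were narrower than those elsewhere. Their median width was 1126 bases (quartiles 561 and 2219), against 1586 bases (786 and 3336) on the rest of the autosomes. The 95% order-statistic intervals of the medians, 1040 to 1196 and 1573 to 1599 bases, did not overlap. Of the 19 windows along the chromosome this one had the smallest median width. Domains of 10 kb or more, typical of broad Polycomb territories, numbered 7 or 1.12% (95% exact interval 0.451% to 2.29%), against 4.30% (4.17% to 4.44%) on the rest. Such domains were also few from 6 to 9 Mb, at 0.743% (0.203% to 1.89%), and in the last 3 Mb, at 1.77% (1.24% to 2.44%). Both intervals overlap that of the centromeric ends. The next 3 Mb had a median of 1193 bases (1060 to 1292), within counting error of the centromeric value.

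The widest Kdm6bMUT domain near the centromere spanned 12.9 kb on chromosome 5 (3354073 to 3366929) with a fold enrichment over input of 3.32. The next were 12.3 kb on chromosome 6 (4466929 to 4479205), fold 3.20, and 12.1 kb on chromosome 18 (5449824 to 5461913), fold 3.37. A Kdm6bWT peak of 300 bases, the smallest width in the lists, lay on each of the former 2 domains. The chromosome 18 domain had none within 57.6 kb. All 3 folds lay above 3.07, the median of autosomal Kdm6bMUT peaks, and close to their upper quartile of 3.29.

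Joined across gaps of less than 10 kb, the Kdm6bMUT peaks near the centromere formed 208 runs with a median length of 3.38 kb, against 8.72 kb for 16665 runs elsewhere. Single peaks made up 51.4% of the runs (44.4% to 58.4%), against 37.0% (36.3% to 37.7%) elsewhere. Only 4 runs reached 100 kb, or 1.92% (0.526% to 4.85%), against 6.64% (6.26% to 7.03%). The longest, on chromosome 6 from 4412870 to 4644701, extended for 232 kb and held 35 peaks that filled 60.5% of it. In the Kdm6bWT list this run held 1 peak of 0.300 kb. The other 3 lay on chromosome 6 (4073824 to 4201843) and chromosome 18 (4107118 to 4217640 and 3989797 to 4092899), and no Kdm6bWT peak lay in them.

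Kdm6bWT peaks near the centromere had a higher median width than elsewhere, with overlapping intervals. The median was 589 bases (95% order-statistic interval 468 to 840) against 490 bases (470 to 507), and the mean was 1500 against 690 bases. The ratio of the medians was 0.974 with peaks less than 5 kb apart joined and 1.03 without chromosome 11. In the first 100 kb the median was 2685 bases, from 18 peaks. In the remaining 69 peaks it was 472 bases (407 to 589), like that of the rest of the autosomes. Both Kdm6bWT autosomal peaks of 10 kb or more were among these 87 peaks.

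Fold enrichment, compared within each list only, differed little by position. For Kdm6bMUT peaks the median was 3.00 (95% interval 2.97 to 3.03) near the centromere and 3.07 (3.07 to 3.07) on the rest, a ratio of 0.976. From 6 to 9 Mb it was 2.98 (2.95 to 3.01). For Kdm6bWT peaks the medians were 3.82 (3.63 to 3.98) and 3.84 (3.83 to 3.86), which is within counting error. The spread was larger near the centromere. There 34 of the 87 Kdm6bWT peaks (39.1%, 28.8% to 50.1%) lay below the lower quartile of the autosomal list, 3.64. The highest fold of the list, 49.5, also lay here. The lower quartile of these peaks was 2.54 in the first 100 kb and 3.63 beyond it, so the low folds were most marked in the chromosome openings. Beyond the first 100 kb the upper quartile was 4.39, against 4.15 on the rest.

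**Figure D3:**
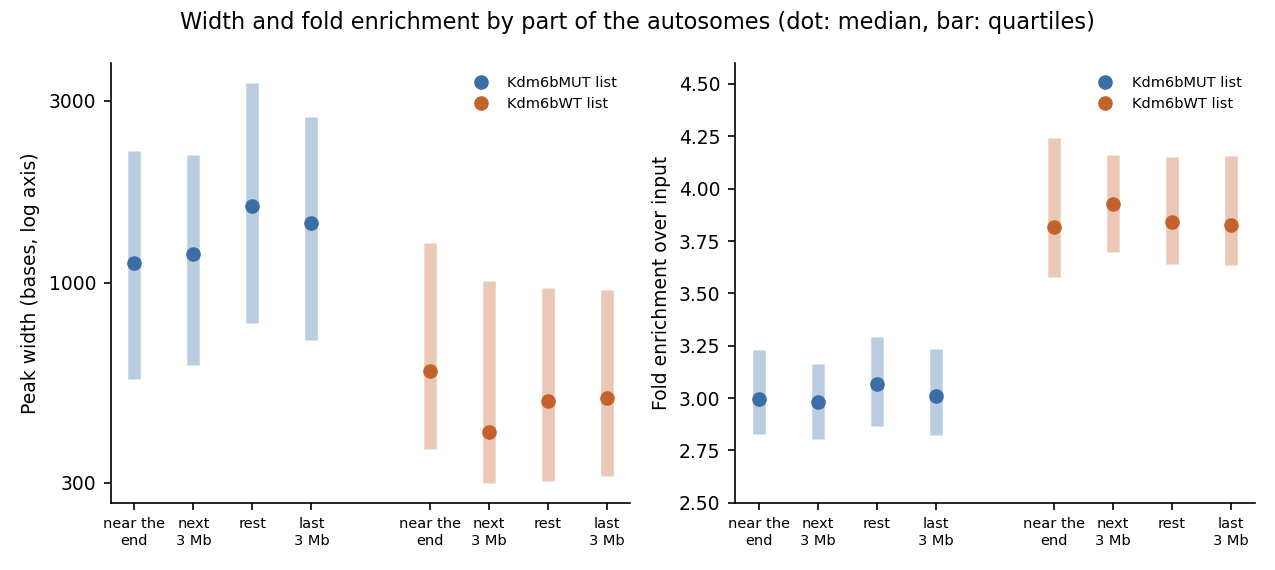
Median (dots) and quartiles (bars) of peak width in bases on a log axis (left) and of fold enrichment over input (right) for peaks near the centromeric end, in the next 3 Mb, on the rest of the autosomes and in the last 3 Mb, per list. Kdm6bMUT widths have a median of 1126 bases near the centromere and 1586 on the rest, and the median folds within a list differ by less than the bars; folds are not comparable between lists.

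Scores of Kdm6bWT peaks were high near the centromere more often than elsewhere. The score is 10 times the −log10 q of the peak, rounded down. Of the 87 Kdm6bWT peaks, 12 (13.8%, 7.34% to 22.9%) lay above the 99th percentile of the autosomal list, against 0.766% (0.537% to 1.06%) of the rest. The first 100 kb held 6 of these 12, and beyond it the share was 8.70% (3.26% to 17.97%). For Kdm6bMUT peaks the shares were 1.12% (0.451% to 2.29%) and 0.763% (0.707% to 0.823%), which overlap. Of the 20 highest scores on the autosomes, 5 in the Kdm6bWT list and 4 in the Kdm6bMUT list belonged to peaks near the centromere. A high score did not always come with a high fold. Of the 7 Kdm6bMUT peaks near the centromere above the 99th percentile, 5 had a fold below the autosomal median, 3.07. On the rest of the autosomes this held for 4 of 673. In the Kdm6bWT list it held for 1 of 12 near the centromere and 3 of 36 on the rest. Median scores were 14 and 13 (Kdm6bWT) and 17 and 18 (Kdm6bMUT), so the difference lay in the upper tail.

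The highest-scoring Kdm6bWT peak, on chromosome 17 (4625997 to 4626758), was 762 bases wide with a score of 1379 and a fold of 49.5. The Kdm6bMUT peak under it was 300 bases wide, with a score of 21 and a fold of 3.34, slightly above the upper quartile of Kdm6bMUT peaks on the rest of the autosomes, 3.29. Chromosome 17 had the fewest Kdm6bMUT peaks near the centromere after chromosomes 14 and 15. It also carried the Kdm6bWT peak of second highest fold near the centromere, 10.5, at 4883550 to 4884062, which lay 257 kb from the nearest Kdm6bMUT peak.

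The chromosome 12 site (3109722 to 3110291 in the Kdm6bWT list) had a high score in both. Its score was 686 in the Kdm6bWT list, rank 3 of the autosomes, and 199 in the Kdm6bMUT list, rank 5. The folds were 7.56 and 3.00, and the Kdm6bMUT fold was slightly below the autosomal median of its list, 3.07. A site on chromosome 5 (3479904 to 3480411) had scores of 62 and 66 and folds of 5.67 and 4.16. Its bounds in the lists differed by 1 base. The highest Kdm6bMUT fold near the centromere, 4.35, was on chromosome 6 (4735706 to 4736168), 10.6 kb from the nearest Kdm6bWT peak. The third highest, 3.98, was on chromosome 18 (4681963 to 4682407), 0.242 kb from one.

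The opening of chromosome 9 carried peaks in both lists. Between 2999916 and 3038313, 6 Kdm6bWT peaks covered 24.3 kb, with folds between 3.41 and 4.55 and scores between 49 and 189. In the Kdm6bMUT list 6 peaks covered 10.2 kb here, all of it inside the Kdm6bWT peaks, with folds between 1.55 and 2.23 and scores between 15 and 60. The pair that shared the most bases was a Kdm6bWT peak of 7.46 kb (3020434 to 3027895, score 189) over a Kdm6bMUT peak of 5.05 kb (3021944 to 3026992, score 60, fold 2.05). The Kdm6bWT folds lay around the quartiles of Kdm6bWT peaks on the rest of the autosomes, 3.64 and 4.15. The Kdm6bMUT folds were at the bottom of their list: only 7 autosomal Kdm6bMUT peaks had a fold below 2, and 5 of them lay near the centromere, 4 in this stretch and 1 on chromosome 18 (3005686 to 3005985, fold 1.71). All 5 lay in Kdm6bWT peaks, and the other 2, on the rest of the autosomes, also shared bases with a Kdm6bWT peak. Peaks with a fold below 2 were picked out after the values were seen.

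The opening of chromosome 11 had far more Kdm6bWT than Kdm6bMUT coverage. There 9 Kdm6bWT peaks between 3000255 and 3100024 covered 54.8 kb, or 55.0% of the stretch, with widths from 1732 to 13768 bases. Their folds, 2.26 to 2.79, were all below the lower quartile of 3.64 on the rest of the autosomes, and their scores ran from 15 to 41. The widest were 13.8 kb, 12.1 kb and 7.88 kb and none touched a Kdm6bMUT peak. The Kdm6bMUT list had 3 peaks here of 773 to 1102 bases with folds of 2.70 to 3.08, in a gap between Kdm6bWT peaks. Unlike on chromosome 9, no base was shared.

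**Figure D4:**
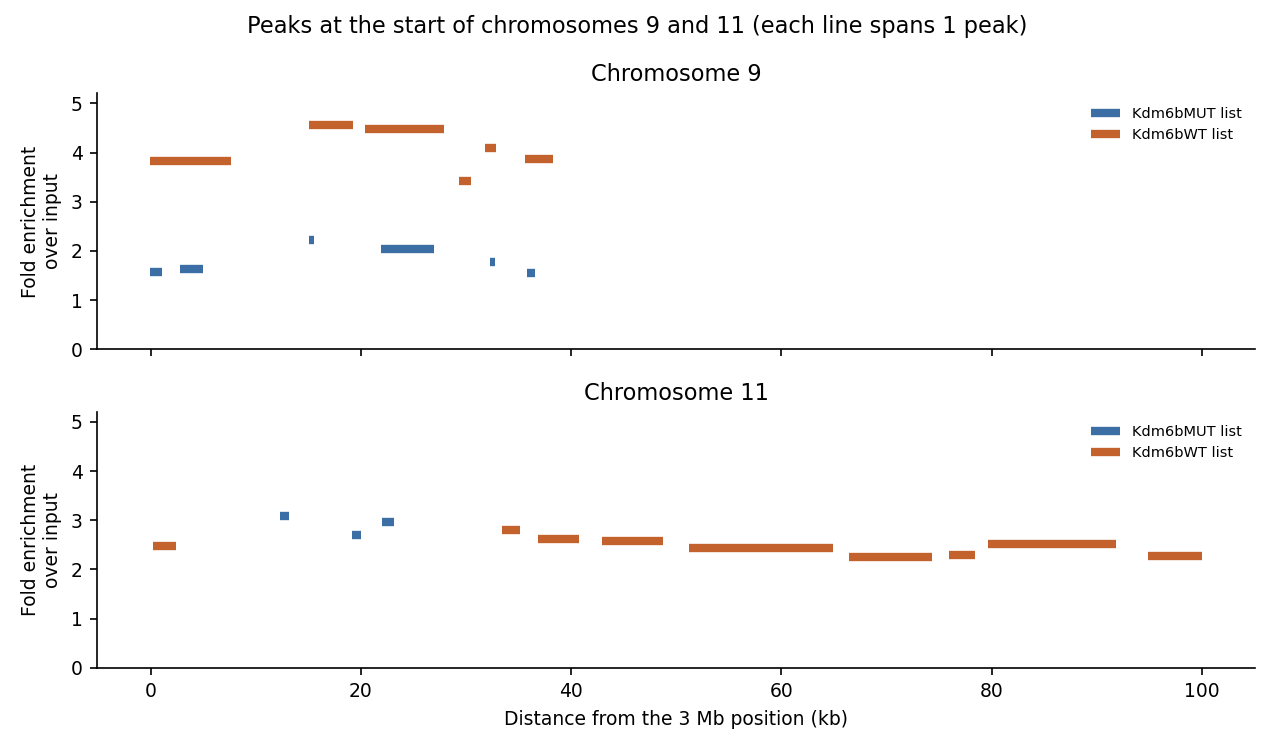
Fold enrichment over input (y axis) of each peak at the start of chromosome 9 (above) and chromosome 11 (below) by distance in kb from the 3 Mb position (x axis), where each line spans 1 peak. On chromosome 9 the Kdm6bMUT peaks (folds 1.55 to 2.23) lie within the Kdm6bWT peaks (3.41 to 4.55), and on chromosome 11 the 9 Kdm6bWT peaks (2.26 to 2.79) and 3 Kdm6bMUT peaks share no base.

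Together the first 100 kb of the autosomes held 18 Kdm6bWT peaks on 5 chromosomes, covering 81.3 kb, or 62.3% of all Kdm6bWT bases near the centromere. Peaks were assigned by their end, so 8 of the 9 peaks of the chromosome 11 opening, covering 49.7 kb, count here. The last of the 9, ending at 3100024, stays in the values given without the first 100 kb. The same sequence held 26 Kdm6bMUT peaks on 7 chromosomes, covering 44.6 kb, or 4.11% of the Kdm6bMUT bases. Covered length was thus 0.548 times as large in the Kdm6bMUT as in the Kdm6bWT list, where the rest of the autosomes gave 76.0. In the Kdm6bMUT list, chromosomes 10 and 1 led the first 100 kb with 14.0 kb and 11.1 kb, and neither had a Kdm6bWT peak there. Whether repeated sequence or the number of reads at these openings plays a part was not tested.

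Few Kdm6bWT peaks near the centromere lay on Kdm6bMUT peaks. Of the 87, 18 shared at least 1 base with one (20.7%, 95% exact interval 12.7% to 30.7%), against 50.2% of all autosomal Kdm6bWT peaks and 50.7% (49.3% to 52.2%) of the rest. By base the shares were 12.5% and 44.6%. From 6 to 9 Mb the share was 18.4% (8.76% to 32.0%), within counting error of that at the centromeric end, whereas in the last 3 Mb of the chromosomes it was 49.2% (39.8% to 58.5%). The low share thus extended to the next 3 Mb, whereas the distal ends were like the rest of the autosomes.

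From the other side, 19 of the 625 Kdm6bMUT peaks were touched by a Kdm6bWT peak, a share of 3.04% (1.84% to 4.71%), where 2.63% of all autosomal Kdm6bMUT peaks were. The shared part of the bases was 1.50% against 0.587%. Outside the first 100 kb it was 0.560%, and the share of peaks 2.00% (1.04% to 3.47%).

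Windows with more Kdm6bMUT coverage had a higher share of Kdm6bWT peaks on Kdm6bMUT peaks. The share was between 16.9% and 30.7% in the 8 windows of 3 Mb up to 27 Mb, where Kdm6bMUT peaks covered 1.64% to 4.50% of the sequence. It reached 61.8% in the window starting at 48 Mb, where they covered 13.0%. Divided by the covered percentage, the share was 10.9 times the coverage near the centromere, 11.2 times from 6 to 9 Mb, 4.84 times on the rest and 6.13 times in the last 3 Mb. This quotient also depends on peak widths, so it is given as a description.

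**Figure D5:**
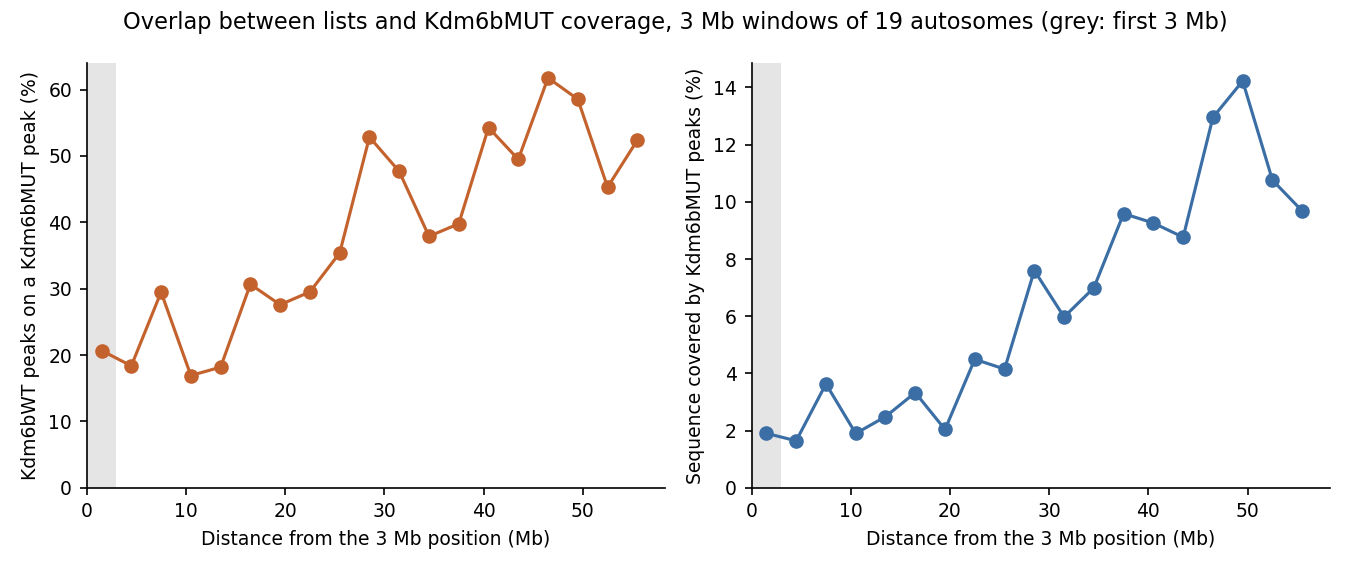
Percent of Kdm6bWT peaks that share at least 1 base with a Kdm6bMUT peak (left, y axis) and percent of sequence covered by Kdm6bMUT peaks (right, y axis) in windows of 3 Mb over 19 autosomes by distance in Mb from the 3 Mb position (x axis); grey marks the first 3 Mb. Both are low at the centromeric end, at 20.7% and 1.90%, and higher toward the right of the plots, up to 61.8% and 14.2%.

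Kdm6bWT peaks that missed a Kdm6bMUT peak were also farther from one. Near the centromere 54 of the 87 (62.1%, 51.0% to 72.3%) lay more than 5 kb from any Kdm6bMUT peak, against 27.7% (26.4% to 29.0%) on the rest. Another 15 (17.2%, 9.98% to 26.8%) lay within 5 kb, against 21.6% (20.5% to 22.8%), which as shares of all Kdm6bWT peaks is within counting error. Among only the Kdm6bWT peaks that missed a Kdm6bMUT peak, the share within 5 kb was smaller near the centromere, 15 of 69 against 1017 of 2317 on the rest. The median distance of those outside was 36.4 kb near the centromere and 8.74 kb elsewhere.

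The shared sites near the centromere, 18 Kdm6bWT peaks paired with 19 Kdm6bMUT peaks, were on 11 autosomes. Elsewhere a touched Kdm6bMUT peak was typically a wide one, with a median of 4869 bases against 1550 for those not touched. Near the centromere the medians were 1118 and 1128 bases. Split further, they were 1408 bases for 12 touched and 1132 for 587 other Kdm6bMUT peaks beyond the first 100 kb. In the first 100 kb they were 817 bases for 7 touched and 1067 for 19 other peaks. The shared Kdm6bWT peaks had a median score of 48, against 14 for the 69 not shared, with ranges of 10 to 1379 and 10 to 141 that overlap. On the rest of the autosomes both medians were 13. Beyond the first 100 kb the median scores were 16 for 12 shared and 13 for 57 other peaks, so most of that difference came from the chromosome openings.

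After the chromosome 17 and 12 sites, the shared sites of highest Kdm6bWT score were all in the chromosome 9 opening, with scores of 189, 160 and 149 over Kdm6bMUT peaks scoring 60, 32 and 59. Outside the openings some pairs had low scores in both lists. On chromosome 2 a Kdm6bWT peak of 1594 bases (3184859 to 3186452, score 13) lay wholly within a Kdm6bMUT peak of 3866 bases with a score of 18 and folds of 3.90 and 3.14. On chromosome 1 one of 474 bases (5891854 to 5892327, score 10) lay within a Kdm6bMUT peak of 2856 bases with a score of 21. These last 2 pairs were chosen after their values were seen, as examples of pairs with low scores.

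The 6 Mb limit cut through 1 peak, a Kdm6bMUT peak of 3662 bases on chromosome 8 (5997582 to 6001243, fold 3.00), which counts with the rest. The last Kdm6bMUT peak inside the limit, on the same chromosome, ended at 5988143 with a fold of 2.82. The last Kdm6bWT peak inside ended at 5930959 on chromosome 11 (fold 3.74), and the next outside at 6165318 on chromosome 9 (fold 4.02). At the other boundary 1 peak of each list, both on chromosome 9, began before the 3 Mb position, by 66 bases (Kdm6bMUT) and 85 bases (Kdm6bWT).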

How the data were processed

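The series holds 8 samples: 4 RNA-seq, 2 ChIP and 2 input. Groups were taken from the titles, and only the 2 H3K27me3 peak lists were used; RNA was not analysed here. Per the submitters' processing notes, Bowtie2 2.2.2, MACS2 and the build mm9 were used in the series; no source used here gives their roles, settings or duplicate handling. Columns were read as those of a broad peak list from MACS2: the fold enrichment is a ratio deposited by the authors, beside a −log10 p, a −log10 q and a score deposited by the authors. The score matched the −log10 q times 10, rounded down, for 100% of Kdm6bWT and 99.998% of Kdm6bMUT peaks. Depth is unknown.

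Peaks ending at or before 6 Mb were compared with the rest of each autosome up to the last peak of either list (57 and 2354 Mb), using Python 3.11.15, numpy 2.4.6, pandas 2.3.3, scipy 1.17.1 and matplotlib 3.10.9. Overlap meant at least 1 shared base. Densities have exact Poisson, their ratios exact conditional, shares exact (Clopper-Pearson) and medians order-statistic 95% intervals; all cover counting error only. The code was tested on simulated data. Named regions were the 3 widest, highest-scoring and highest-fold peaks, the 3 most and least covered chromosomes and 3 most covered windows per list, and the 5 shared sites of highest Kdm6bWT score; others are said to be chosen later. The members and rules were chosen with earlier results of these data known. Alternatives changed the limit, threshold, width, joining, overlap, comparison and chromosomes. No genome of the files' build was used here, so no sequence is printed.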

Additional observations from a re-analysis of the deposited data

How the results depend on the processing

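No paired analysis was possible because there was 1 ChIP library per injection. There were 136 values from alternative settings. Of these, 87 stayed inside the 95% interval of the reported value or, for counts and covered bases, within 1.5 times of it. Another 40 moved further, and 9 left that range and crossed to the other side. Some of the 87 also crossed, but inside the interval. They include Kdm6bWT width ratios of 0.974 (peaks joined) and 0.963 (without the first 100 kb). Kdm6bMUT overlap differences of -0.226 points (9 Mb limit) and -0.624 points (without the first 100 kb) are others, as are Kdm6bWT fold ratios of up to 1.01. The cause was not tested, except that limits, floors, widths and joining change the number of peaks by construction. The lower Kdm6bMUT density and coverage held in every setting other than the comparison with 6 to 9 Mb. That comparison gave 1.16 for Kdm6bMUT density, 1.16 for coverage, 0.944 for width and 1.01 for fold, and for Kdm6bWT 1.78 for density, 4.02 for coverage and 2.32 percentage points for overlap.
With ends of at most 4 Mb there were 211 and 48 peaks (Kdm6bMUT and Kdm6bWT); ratios to the rest were 0.652 (Kdm6bMUT width), 0.965 (Kdm6bMUT fold), 1.27 (Kdm6bWT density), 2.28 (Kdm6bWT width) and 4.19 (Kdm6bWT coverage), the Kdm6bMUT overlap difference was 4.01 points, and coverage differed 3.19 times between lists. At 5 Mb the Kdm6bMUT density ratio was 0.334. At 9 Mb there were 1163 and 136 peaks, with density ratios of 0.267 and 0.589 and a Kdm6bWT coverage ratio of 1.02. A score of at least 13 left 55 Kdm6bWT peaks and a coverage ratio of 3.22. At the lowest −log10 p of the Kdm6bWT list, 3.67, 244 Kdm6bMUT peaks gave ratios of 0.248 (density), 0.525 (width) and 0.993 (fold), the Kdm6bWT overlap difference was -19.9 points, and coverage differed 4.00 times between lists. Peaks of at least 1 kb numbered 350 and 29, with density ratios of 0.242 and 1.08, a Kdm6bMUT width ratio of 0.786, a Kdm6bWT coverage ratio of 2.75 and a Kdm6bWT overlap difference of -44.9 points. Joining across 5 kb left 322 Kdm6bMUT peaks, with ratios of 0.447 (density) and 0.560 (width) and an overlap difference of -0.998 points. Length from the first peak gave a Kdm6bMUT density ratio of 0.327. Without chromosome 11 the Kdm6bWT coverage ratio was 1.01 and coverage differed 14.1 times between lists.
Settings chosen after seeing the data were leaving out the first 100 kb (Kdm6bWT coverage ratio 0.647, 21.2 times between lists) and chromosomes 6, 18 and 3 (Kdm6bMUT density 0.177, coverage 0.0965, 4.10 times between lists). The reported overlap differences were 0.412 points (Kdm6bMUT) and -30.0 points (Kdm6bWT). The Kdm6bWT density and coverage ratios thus depend on the limit, the threshold and the first 100 kb.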

Other observations

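The X chromosome, which the position rule leaves out, was also poor in Kdm6bMUT peaks at its centromeric end. It held 7 Kdm6bMUT peaks with ends of at most 6 Mb, covering 7.05 kb, or 2.33 per Mb against 8.09 per Mb on the rest of X. Its first Kdm6bMUT peak began at 5199046. The Kdm6bWT list had 0 peaks there, with the first at 6843743, and a density of 1.18 per Mb on the rest of X.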
